A study of Mus musculus with 12 samples.

Results

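The genes described here are 30 enzymes and regulators of sterol and fatty acid synthesis, listed by name from the known pathway, by a rule that itself takes no measured value, out of 55401 genes with deposited counts. All 30 were found and all 30 passed the filter on low counts, which kept 25771 genes. They were measured by RNA-seq in satellite cells, the stem cells of skeletal muscle, sorted from hind limbs by the *Pax7*-ZsGreen reporter, and they were compared between *Cxcr4* WT and *Cxcr4* KO cells in 2 states. Quiescent cells were profiled straight after sorting (4 libraries per genotype), and activated cells after a night in growth medium (2 libraries per genotype). All mice carried the CXCR4 FL/FL and Pax7-ZsGreen alleles, and all received tamoxifen at 80 mg/kg on 5 days. KO mice also carried Pax7-creERT2, which deletes the floxed gene in *Pax7*-expressing cells, and WT mice carried no cre, so the presence of cre and the deletion cannot be told apart. The mice were adults, kept on a tamoxifen diet after the injections, and the labels do not say whether a library came from 1 animal, so p-values measure the spread between libraries.

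Cholesterol is built from acetyl-CoA in a long chain of steps: acetyl-CoA is condensed and reduced to mevalonate, mevalonate is turned into isoprene units, these are joined into squalene, and squalene is closed to lanosterol and trimmed to cholesterol. Fatty acids start from the same acetyl-CoA, which is carboxylated, built into palmitate, lengthened and desaturated. Both branches are switched on by the SREBP transcription factors, membrane proteins encoded by *Srebf1* and *Srebf2*. The escort protein Scap carries SREBPs from the endoplasmic reticulum to the Golgi for cleavage, and the Insig proteins hold them back when sterols are plentiful. Dividing muscle precursors need sterols and fatty acids for new membranes.

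Several facts of the whole set of libraries touch the results. The quiescent libraries held 12775593 to 23717013 counts, the activated ones 3172164 to 5427280, and a gene of the ribosomal RNA type took 11.5% to 40.3% of counts in activated and 0.295% to 0.807% in quiescent libraries. *Cxcr4* was at 59.1 to 112 CPM (depth-scaled read counts, with edgeR's TMM factors) in WT and 12.5 to 21.2 CPM in KO quiescent libraries, which did not overlap. In activated libraries it was at 33.3 and 14.5 CPM in WT and at 5.39 and 13.7 CPM in KO. All 10 satellite cell markers were detected in every library, with a summed level of 6109 to 10370 CPM in quiescent and 3120 to 4393 CPM in activated libraries. All 8 markers of mature fibres summed to 282 to 1013 CPM in quiescent and 7274 to 17460 CPM in activated libraries. Genes of the Y chromosome summed to 358 to 660 CPM in quiescent libraries and to at most 2.51 CPM in activated libraries, while *Xist* stood at 1.2 to 7.17 CPM in quiescent and 451 to 817 CPM in activated libraries, so state and sex cannot be told apart.

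The promoters of the members were read from the RefSeq promoter table (build GRCm38.p6, 250 bases before to 50 bases after each start), which held 32 promoters of 24 members. The letters TCACNCCAC, a core of the sterol response element that SREBPs bind, were searched on both strands and were found in the promoter of 1 of these 24 members, *Hmgcs1*, and in the promoters of 1.36% of the 12437 genes in the table with a mean normalized count over 10. The window is shown because it is the one direct match, with the matched letters in capitals (chr13:119690189-119690247, plus strand, before the start of the gene).
*Hmgcs1*: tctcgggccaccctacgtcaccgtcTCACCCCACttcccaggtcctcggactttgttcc

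CCAAT, the box bound by NF-Y, which acts beside SREBPs at many sterol genes, was also searched on both strands, where its complement reads ATTGG. It was found for 20 of the 24 members (83.3%) and for 41.8% of the genes in the table with a mean normalized count over 10. Counted over promoters, it was in 65.6% of the members' and 36.8% of these genes' promoters. The GC box GGGCGG, bound by Sp1, was found for 20 of the 24 members (83.3%) against 63.7%. The windows below hold CCAAT or its complement in capitals and do not overlap an annotated exon. *Hmgcs1*, *Hsd17b7*, *Ebp*, *Insig1* and *Insig2* were called lower after culture in at least 1 genotype, and *Mvk* and *Fasn* were called in neither.
*Hmgcs1* (chr13:119690281-119690335, plus strand): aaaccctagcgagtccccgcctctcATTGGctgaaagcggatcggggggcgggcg
*Hsd17b7* (chr1:169969249-169969303, minus strand): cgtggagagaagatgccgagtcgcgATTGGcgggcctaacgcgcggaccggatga
*Ebp* (chrX:8193538-8193592, minus strand): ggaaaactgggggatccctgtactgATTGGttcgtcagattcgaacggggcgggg
*Insig1* (chr5:28071171-28071225, plus strand): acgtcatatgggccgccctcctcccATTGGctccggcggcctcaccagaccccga
*Insig2* (chr1:121332606-121332660, minus strand): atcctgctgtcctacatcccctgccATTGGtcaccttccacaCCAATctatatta
*Mvk* (chr5:114444177-114444231, plus strand): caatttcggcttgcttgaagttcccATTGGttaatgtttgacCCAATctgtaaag
*Fasn* (chr11:120824580-120824634, minus strand): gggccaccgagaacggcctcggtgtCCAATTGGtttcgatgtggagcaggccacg
The box stood in the promoters of 8 of 9 members called lower in at least 1 genotype and of 12 of 15 other members, so its presence did not separate the genes that fell from those that did not. A match is a description of the letters and not of a bound site.

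Levels can be compared between genes only per length. In WT quiescent cells, on the scale of CPM per kilobase of exon, the highest members were the negative regulators *Insig2* (51.8 ± 14.2, SD, n = 4) and *Insig1* (41.5 ± 9.41), followed by *Srebf2* (34.0 ± 8.26), the fatty acid synthase *Fasn* (33.8 ± 6.14) and the stearoyl-CoA desaturases *Scd2* (22.8 ± 2.52) and *Scd1* (22.5 ± 4.89). *Srebf2* and *Fasn*, and likewise *Scd2* and *Scd1*, differed by less than their spread. Next came the lanosterol demethylase *Cyp51* (19.9 ± 6.20), the HMG-CoA synthase *Hmgcs1* (18.0 ± 1.84) and the ATP-citrate lyase *Acly* (16.6 ± 1.5). The other 21 members stood at 0.471 to 11.9. The lowest was *Fdps*, the farnesyl diphosphate synthase, whose exons share 26.7% of their length with another gene on the same strand. How reads in such overlaps were assigned is not given in the sources used here. After culture the order changed: *Fasn* ranked first in both genotypes (35.6 and 36.5), and *Insig2* ranked 7 in WT (10.3) and 6 in KO (11.7).

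Activated cells were compared with quiescent cells of the same genotype to ask how the pathway behaves when satellite cells leave quiescence. *Idi1*, *Cyp51*, *Insig2* and *Scd2* were 3.43 to 6.91 times lower after culture in WT, while *Fdft1*, *Msmo1* and *Fasn* were not called. A gene was called at an adjusted p-value under 0.05 (edgeR's quasi-likelihood test, adjusted over 25771 genes), a log2 fold change of more than 1 up or down, and a mean normalized count over 10. In WT cells 1 member rose and 11 fell, and 18 were not called. In KO cells 1 rose and 10 fell, and 19 were not called. Of all tested genes, 26.2% were called in WT (9.65% higher, 16.5% lower) and 29.6% in KO (11.1% higher, 18.5% lower). Among genes with a mean normalized count over 10, 37.7% were called in WT and 41.3% in KO, and 23.8% and 25.9% were called lower. The members' share called was near that of other expressed genes, so it is no result about the pathway. The median log2 difference over the members was -0.68 in WT and -0.79 in KO, and over all genes -0.92 and -0.96. With genes of a mean count of at least 10 the median over all genes was -0.46 and -0.49. Of the genes that fell, 9 did so in both genotypes (81.8% of those in WT, 90% of those in KO): *Acat2*, *Pmvk*, *Idi1*, *Sqle*, *Cyp51*, *Ebp*, *Insig1*, *Insig2* and *Scd2*. The sign was the same in both genotypes for 27 of 30 members. With 2 activated libraries per genotype, most calls were lost without 1 or the other of them, and each loss is given with its gene. *Hmgcs1*, *Hsd17b7* and *Acaca* were called in WT alone and *Scap* and *Stard4* in KO alone, but the test of the difference between genotypes called none of them.

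**Figure D1:**
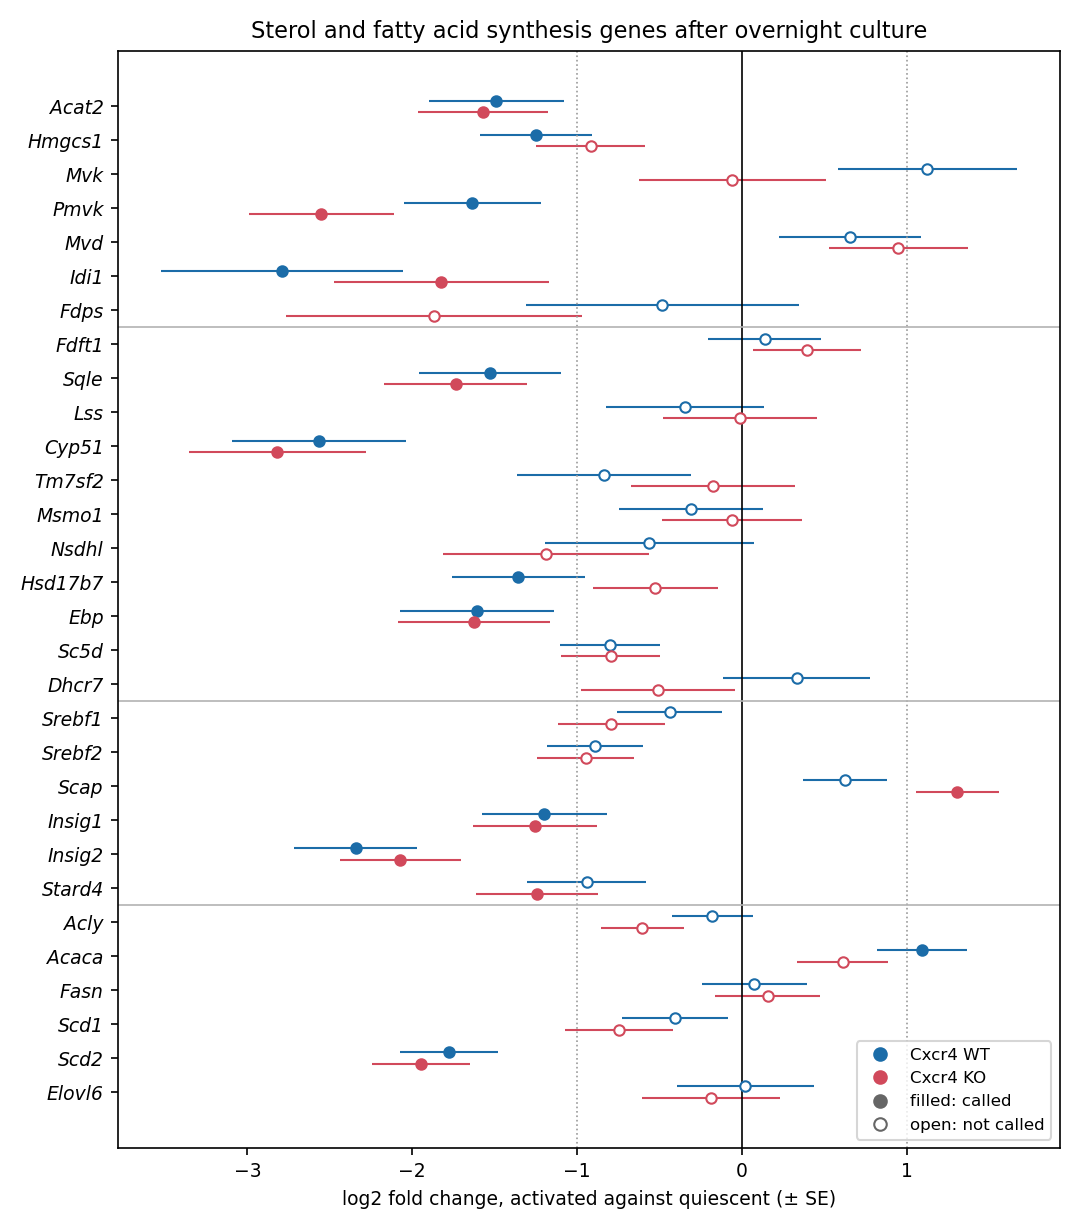
Log2 fold change of the 30 members, activated against quiescent (x axis, bars ± SE), in *Cxcr4* WT (blue) and KO (red), in order of their roles and divided by grey lines. Filled points were called, and dotted lines mark a log2 fold change of 1 in either direction. *Idi1*, *Cyp51*, *Insig2* and *Scd2* lie far to the left in both genotypes, while *Fdft1*, *Msmo1*, *Fasn* and *Elovl6* lie near 0.

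The first steps, from acetyl-CoA to farnesyl diphosphate, hold 7 members, of which 4 fell in WT and 3 in KO, and none rose. *Idi1*, the isomerase that makes dimethylallyl diphosphate, the starter unit of isoprenoids (GRCm38 chr13:8885501-8892451), stood at 13.5, 13.3, 17.2 and 23.6 CPM in WT quiescent libraries and at 1.80 and 3.5 CPM in WT activated libraries. In KO it stood at 5.84, 6.15, 29.2 and 25.03 CPM before and at 7.19 and 2.28 CPM after culture. The WT groups did not overlap, and the KO groups did. *Idi1* fell by 2.79 on the log2 scale in WT (SE 0.73, adjusted p = 0.00705, edgeR) and by 1.82 in KO (SE 0.65, adjusted p = 0.0374). The call in WT was lost without WT activated replicate 1 (log2 difference -2.19, adjusted p = 0.123). The call in KO was lost with the replicate block (log2 difference -0.85, adjusted p = 0.238), with edgeR on the KO groups alone (adjusted p = 0.0780), and also without KO quiescent replicate 3 (0.0979), without KO quiescent replicate 4 (0.0710) or without KO activated replicate 2 (0.327).

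*Acat2*, the cytosolic thiolase that joins 2 acetyl-CoA molecules (chr17:12942890-12960747), was at 11.2, 11.5, 16.2 and 17.4 CPM in WT quiescent and at 3.59 and 7.01 CPM in WT activated libraries. In KO it was at 21.5, 12.1, 15.4 and 18.9 CPM and then at 6.42 and 5.02 CPM. All activated libraries lay below all quiescent libraries. It fell by 1.49 in WT (SE 0.41, adjusted p = 0.00930) and by 1.57 in KO (SE 0.40, adjusted p = 0.00454) on the log2 scale. These calls were lost without WT activated replicate 1 (log2 difference -0.93, adjusted p = 0.289) and without KO activated replicate 2 (-1.38, adjusted p = 0.0769). The phosphomevalonate kinase *Pmvk* went from 8.53 to 15.3 CPM in WT quiescent libraries to 4.74 and 2.19 CPM, and from 13.3 to 16.5 CPM in KO quiescent libraries to 2.06 and 2.97 CPM. The groups did not overlap in either genotype, and the log2 differences were -1.63 (SE 0.42, adjusted p = 0.00551) and -2.55 (SE 0.44, adjusted p = 0.000166). Without WT activated replicate 2 the call in WT was lost (-1.22, adjusted p = 0.117). *Hmgcs1* (chr13:119690379-119708260) makes HMG-CoA, and its promoter holds the match to the letters of the sterol response element core shown above. It was at 71.4 to 91.8 CPM in WT quiescent libraries and at 36.3 and 33.3 CPM after culture. It fell by 1.25 in WT (SE 0.34, adjusted p = 0.00883), a call that was lost with the replicate block (log2 difference -0.94) and without WT activated replicate 1 or 2 (adjusted p = 0.0723 and 0.0959). In KO its quiescent libraries spread from 38.1 to 112 CPM and overlapped the activated libraries (37.2 and 41.5 CPM), and the log2 difference of -0.92 (SE 0.33, adjusted p = 0.0391) did not reach the threshold of 1. The mevalonate kinase *Mvk* (log2 difference 1.13 in WT and -0.06 in KO), the decarboxylase *Mvd* (0.66 and 0.95) and *Fdps* (-0.48 and -1.87) were not called. These 3 were low, at 0.228 to 12.8 CPM in all libraries.

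From squalene to cholesterol, 4 of 11 members fell in WT, 3 fell in KO, and none rose. *Cyp51* (chr5:4081145-4104746), which removes a methyl group from lanosterol, had the lowest log2 difference of the 11 in both genotypes. It stood at 66.6, 63.9, 100.1 and 121 CPM in WT and 25.2, 46.4, 127 and 113 CPM in KO quiescent libraries, and at 14.1 and 15.8 CPM in WT and 12.1 and 10.0 CPM in KO activated libraries. All 4 activated libraries lay below all 8 quiescent libraries. The fall was 5.92-fold in WT (log2 difference -2.57, SE 0.53, adjusted p = 0.000972) and 2.82 on the log2 scale in KO (SE 0.54, adjusted p = 0.000433). The squalene epoxidase *Sqle*, which catalyses an early and rate-setting step of this stretch, was at 44.8 to 84.2 CPM in WT and 27.3 to 79.0 CPM in KO quiescent libraries and at 10.5 to 24.5 CPM in the activated libraries, with no overlap. It fell by 1.53 in WT (SE 0.43, adjusted p = 0.0110) and by 1.74 in KO (SE 0.43, adjusted p = 0.00434). The calls were lost without WT activated replicate 1 (adjusted p = 0.150) and without KO activated replicate 2 (adjusted p = 0.103). The sterol isomerase *Ebp* stood at 15.4 to 33.0 CPM in WT and 19.7 to 37.5 CPM in KO quiescent libraries, and at 8.49 and 7.44 CPM in WT and 13.6 and 3.65 CPM in KO activated libraries, with no overlap. It fell by 1.61 in WT (SE 0.47, adjusted p = 0.0136) and by 1.62 in KO (SE 0.46, adjusted p = 0.0107). The call in WT was lost without activated replicate 1 or 2 (adjusted p = 0.0898 and 0.0961), and that in KO without activated replicate 2 (log2 difference -0.94, adjusted p = 0.221). *Hsd17b7*, a sterol ketoreductase, was at 33.4 to 61.4 CPM in WT quiescent libraries and at 20.9 and 14.5 CPM after culture, and it fell by 1.36 in WT (SE 0.40, adjusted p = 0.0153), a call lost with the replicate block (log2 difference -0.90) and without WT activated replicate 2 (adjusted p = 0.165). In KO it went from 26.3 to 76.8 CPM to 40.6 and 27.2 CPM, the groups overlapped, and it was not called (log2 difference -0.52, SE 0.38).

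The other 7 enzymes of this stretch were not called in either genotype. The squalene synthase *Fdft1*, the entry to sterol synthesis proper, stood at 9.35 to 11.0 CPM in WT and 7.25 to 14.9 CPM in KO quiescent libraries and at 10.5 to 15.7 CPM after culture, and the groups overlapped (log2 differences 0.14, SE 0.34, and 0.40, SE 0.33). *Msmo1*, the methylsterol monooxygenase that acts soon after *Cyp51*, stood at 18.1 to 36.0 CPM in WT and 10.5 to 40.8 CPM in KO quiescent libraries and at 18.8 to 25.1 CPM after culture (log2 differences -0.31, SE 0.44, and -0.06, SE 0.43). The lanosterol synthase *Lss* had log2 differences of -0.34 and -0.01. *Dhcr7*, which turns its last precursor into cholesterol, had log2 differences of 0.33 and -0.51, and *Sc5d*, the lathosterol desaturase, of -0.80 in both genotypes (adjusted p = 0.0513 and 0.0468). *Tm7sf2* and *Nsdhl* lay between -0.17 and -1.19. *Fdft1* shares 18.3% of its exon length with *Ctsb* on the opposite strand, a gene with 67327 counts in all against 1883 for *Fdft1*. *Tm7sf2* shares 12.1% with *Vps51* on the same strand. Whether strand was used in counting, and how reads in overlaps were assigned, is not given in the sources used here. Values of these genes are therefore uncertain.

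**Figure D2:**
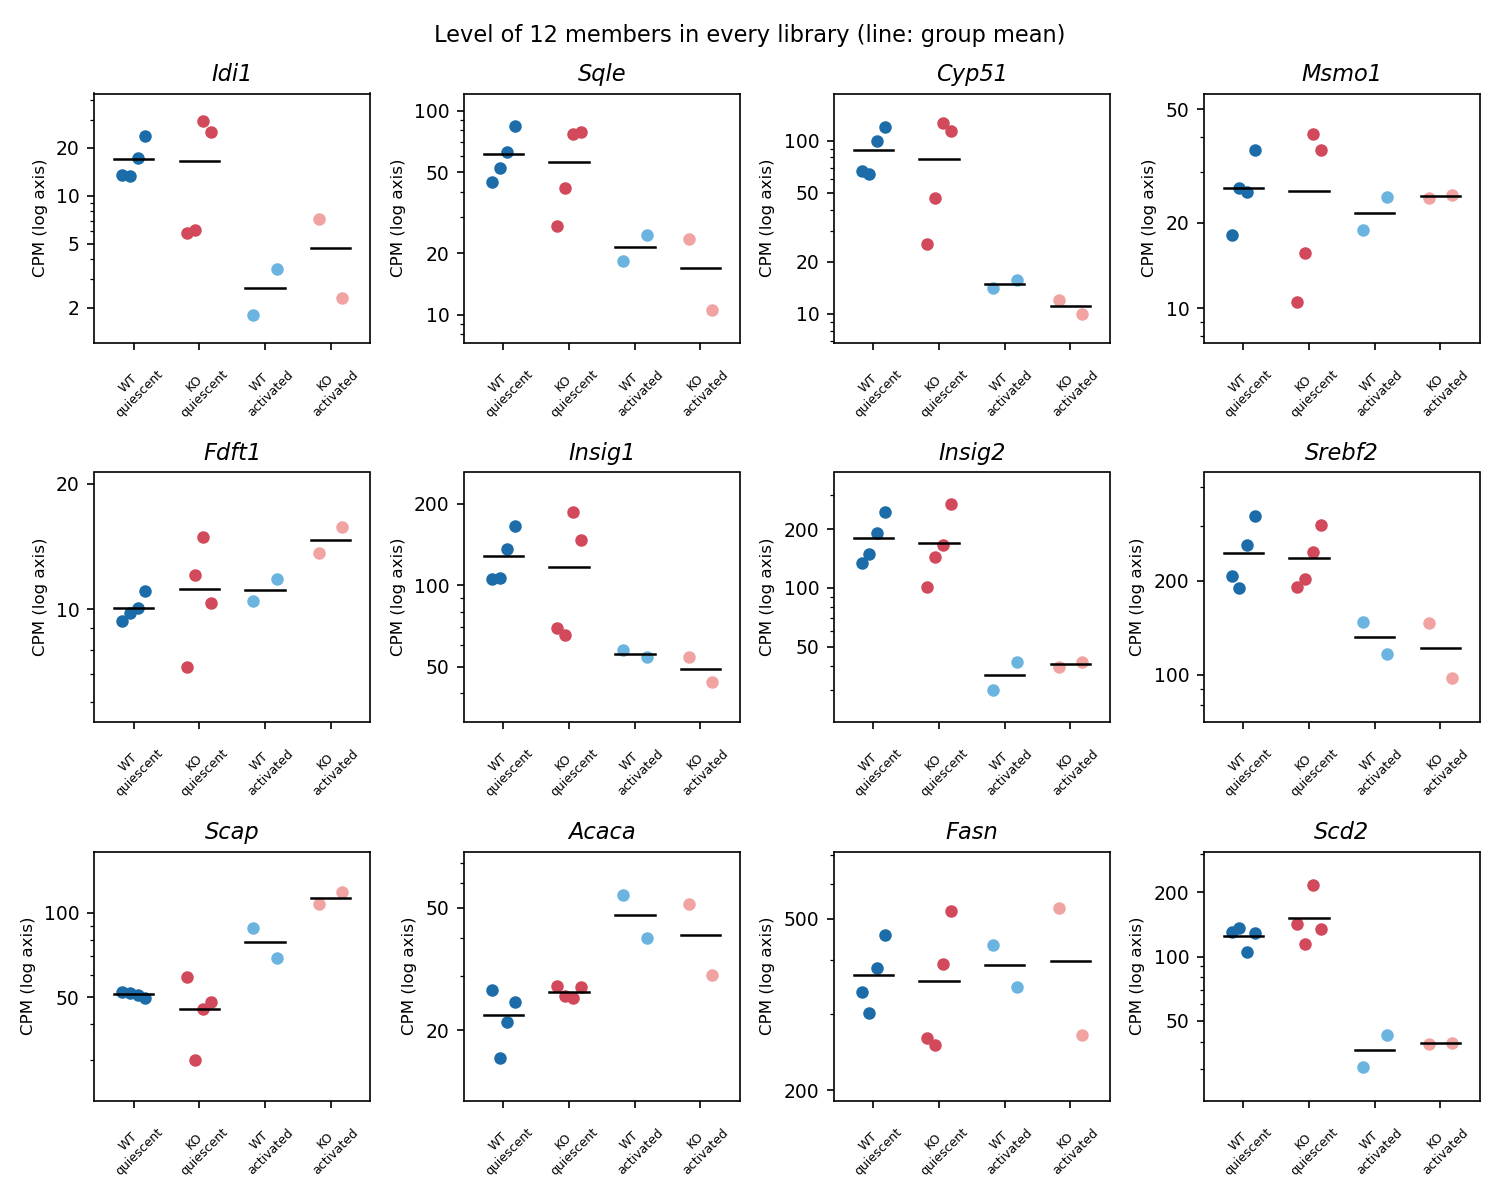
CPM on a log axis of 12 members in every library, by genotype and state, with a line at each group's mean. The activated libraries of *Cyp51*, *Insig1*, *Insig2*, *Srebf2*, *Sqle* and *Scd2* lie below all quiescent libraries, those of *Scap* and *Acaca* lie above, and those of *Fdft1*, *Msmo1* and *Fasn* overlap them.

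The regulators and the sterol carrier *Stard4* hold 6 members. *Insig2* (chr1:121304353-121332589) stood at 134, 149, 192 and 244 CPM in WT and 102, 145, 166 and 269 CPM in KO quiescent libraries. After culture it stood at 29.9 and 41.6 CPM in WT and 39.3 and 41.8 CPM in KO, far below every quiescent library. It fell 5.07-fold in WT (log2 difference -2.34, SE 0.37, adjusted p = 8.22e-05) and by 2.07 on the log2 scale in KO (SE 0.37, adjusted p = 0.000212). *Insig1* (chr5:28071363-28078662) went from 105 to 166 CPM in WT and 65.5 to 187 CPM in KO to 43.8 to 57.5 CPM after culture, with no overlap. It fell by 1.198 in WT (SE 0.38, adjusted p = 0.0217) and by 1.25 in KO (SE 0.38, adjusted p = 0.0153). Both calls were lost with the replicate block (log2 differences -0.74 and -0.67) and without either activated library of that genotype (adjusted p = 0.130 and 0.147 in WT, 0.0585 and 0.145 in KO), and that in KO also without KO quiescent replicate 3 (log2 difference -0.93).

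*Scap* moved the other way. It stood at 49.9 to 52.3 CPM in the WT quiescent libraries, the lowest coefficient of variation of the 30 members in that group (2.01%), and at 29.8 to 59.0 CPM in the KO quiescent libraries. After culture it stood at 88.5 and 68.8 CPM in WT and 107 and 119 CPM in KO, above all quiescent libraries. It rose by 1.31 on the log2 scale in KO (SE 0.25, adjusted p = 0.000445), and the log2 difference of 0.62 in WT was not called (SE 0.26, adjusted p = 0.0709). Another gene on the opposite strand shares 13.2% of the exon length of *Scap*. The SREBP gene *Srebf2* (chr15:82147181-82205379) stood at 190 to 321 CPM in quiescent libraries of both genotypes and at 97.4 to 147 CPM after culture. Its groups did not overlap and its adjusted p-values were 0.0268 in WT and 0.0175 in KO, but its log2 differences of -0.89 (SE 0.29) and -0.95 (SE 0.29) were short of the threshold of 1. *Srebf1* had log2 differences of -0.44 in WT (SE 0.32, adjusted p = 0.289) and -0.79 in KO (SE 0.33, adjusted p = 0.0669). *Stard4* was at 27.0 to 41.5 CPM in WT and 16.4 to 39.3 CPM in KO quiescent libraries and at 9.58 to 20.1 CPM after culture. It fell by 1.24 in KO (SE 0.37, adjusted p = 0.0140), and in WT the log2 difference was -0.94 (SE 0.36, adjusted p = 0.0553). The call in KO was lost with the replicate block (log2 difference -0.99), without KO quiescent replicate 3 (-0.97) and without KO activated replicate 1 or 2 (adjusted p = 0.0505 and 0.159).

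In fatty acid synthesis, 1 of 6 members rose and 1 fell in WT, and 1 fell in KO. *Scd2* (chr19:44293674-44306864), a desaturase that turns saturated into monounsaturated fatty acids, was at 131, 135, 105 and 128 CPM in WT and 141, 114, 216 and 134 CPM in KO quiescent libraries. After culture it was at 30.4 and 42.9 CPM in WT and 39.0 and 39.5 CPM in KO, with no overlap. It fell 3.43-fold in WT (log2 difference -1.78, SE 0.30, adjusted p = 0.000130) and by 1.94 on the log2 scale in KO (SE 0.30, adjusted p = 4.64e-05). Its neighbour *Scd1* (chr19:44394455-44407879) was at 87.8 to 156 CPM in quiescent and 43.9 to 113 CPM in activated libraries and was not called (log2 differences -0.41, SE 0.32, and -0.74, SE 0.33). The acetyl-CoA carboxylase *Acaca* (chr11:84129672-84401651), which makes malonyl-CoA, rose in WT from 16.3 to 27.0 CPM to 55.1 and 39.9 CPM (log2 difference 1.09, SE 0.27, adjusted p = 0.00475), a call lost without WT activated replicate 1 (log2 difference 0.91, adjusted p = 0.0989). In KO it went from 25.5 to 27.8 CPM to 51.4 and 30.3 CPM and was not called (log2 difference 0.61, SE 0.28, adjusted p = 0.0910). A processed pseudogene is 99.2% identical to *Acaca* over 6118 bases, but it held 3.95% of the counts of both. *Fasn*, the highest member in CPM, stood at 255 to 520 CPM in quiescent and at 269 to 530 CPM in activated libraries, and its log2 differences were 0.08 (SE 0.32) and 0.16 (SE 0.32). *Acly* had log2 differences of -0.18 and -0.60, and *Elovl6*, the elongase of palmitate, of 0.02 and -0.19.

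Pairs of members with like functions were compared by the ratio of their counts per kilobase within each library, a measure that does not depend on the scaling of the libraries. The test was an exact permutation test, two-sided, of activated against quiescent libraries within genotype (225 arrangements, smallest possible p = 0.00444), adjusted over the 3 pairs. The ratio of *Insig2* to *Insig1* was 1.14, 1.26, 1.26 and 1.31 in WT and 1.304, 1.97, 0.793 and 1.63 in KO quiescent libraries. It was 0.463 and 0.682 in WT and 0.643 and 0.849 in KO activated libraries. The ratio exceeded 1 in 7 of 8 quiescent libraries and in none of 4 activated libraries. The log2 difference of the ratio was -1.004 (exact p = 0.00889, adjusted p = 0.0200). The ratio of *Scd2* to *Scd1* was 0.762 to 1.41 in the quiescent libraries. In the activated libraries it was 0.376 and 0.408 in WT and 0.796 and 0.314 in KO, so only KO activated replicate 1 lay within the range of the quiescent libraries. The log2 difference was -1.21 (exact p = 0.0133, adjusted p = 0.0200). A stretch of 623 bases is 95.5% identical between the desaturases, so some reads may fit both. The ratio of *Srebf2* to *Srebf1* was 2.07 to 3.21 in quiescent and 1.94 to 2.33 in activated libraries, with a log2 difference of -0.31 (exact p = 0.0489, adjusted p = 0.0489) and overlapping ranges.

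**Figure D3:**
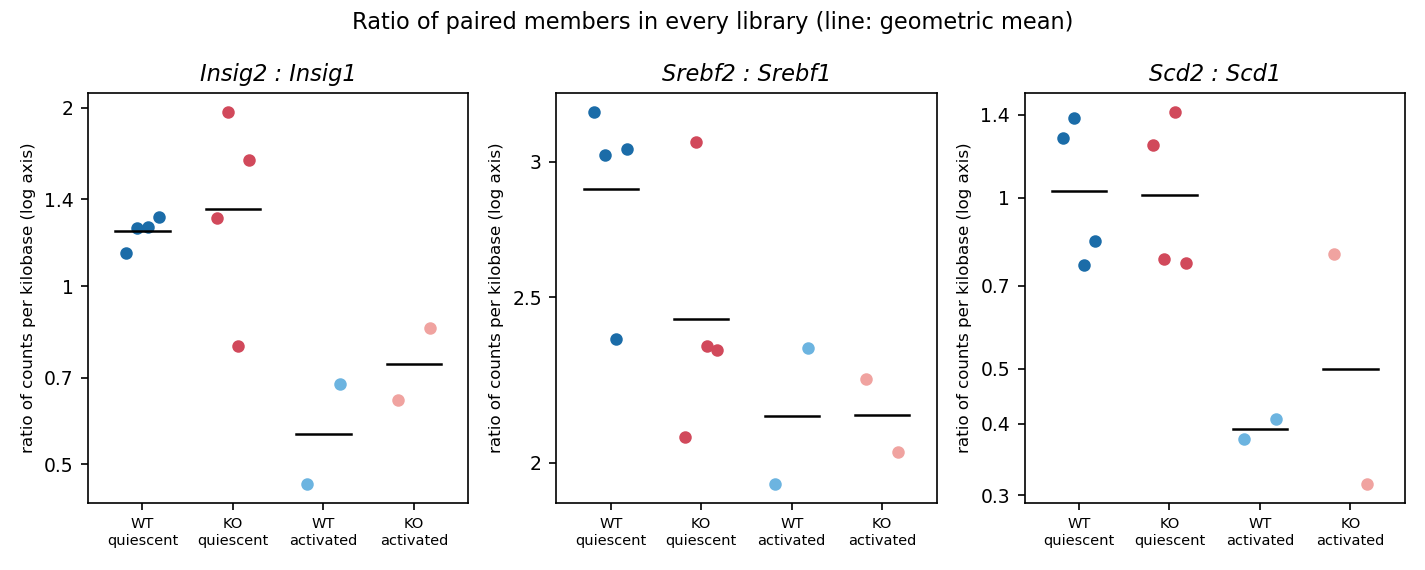
Ratio of counts per kilobase of exon within each library (y axis, log scale) for *Insig2* to *Insig1*, *Srebf2* to *Srebf1* and *Scd2* to *Scd1*, by genotype and state, with lines at geometric means. The *Insig2* to *Insig1* ratio lies at 0.793 to 1.97 in quiescent and 0.463 to 0.849 in activated libraries.

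Markers of other cell types moved with the state, but the markers of 1 type did not always move together. The 8 fibre markers were higher in all 4 activated libraries, as given above. Markers of Schwann cells, which make much sterol for myelin, summed to 518 to 963 CPM in quiescent and 96.3 to 298 CPM in activated libraries. All 10 were detected in every quiescent library, and *Sox10*, *S100b* and *Mag* each were at 0 in 1 activated library. Markers of adipocytes summed to 49.96 to 285 CPM in quiescent and 87.6 to 223 CPM in activated libraries, with 7 or 8 of 8 detected, *Lep* at 0 in 2 libraries and *Adipoq* and *Retn* in 1 each. *Fabp4*, the highest of them in every quiescent library, went from 38.4 to 216 CPM to 13.6 to 46.5 CPM. Most went the other way: 6 of 8 had a log2 difference above 0 in each genotype (median 0.902 in WT and 1.26 in KO). *Plin4* went from 5.04 to 24.2 CPM to 40.2 to 111 CPM. Markers of fibroadipogenic progenitors, all 8 detected, summed to 717 to 2049 CPM in quiescent and 238 to 446 CPM in activated libraries. As a set they were split: 3 of 8 in WT and 4 of 8 in KO had a log2 difference above 0. The median log2 difference over the 8 was -0.801 in WT and 0.085 in KO. *Gsn* went from 405 to 583 CPM to 56.9 to 99.7 CPM, and *Pdgfra* from 3.07 to 9.97 CPM to 8.66 to 28.3 CPM. Blood markers, with 6 to 8 of 8 detected, summed to 83.8 to 395 CPM and 36.8 to 68.4 CPM, and endothelial markers, all 8 detected, to 295 to 1354 CPM and 94.6 to 728 CPM. The ranges of the fibre, Schwann cell, fibroadipogenic progenitor and blood sums did not overlap between the states. The part of these cells in the changes of the members was not tested. In bulk libraries fewer cells of a type and less RNA per cell cannot be told apart.

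Other genes of lipid handling show what moved beside the members. The shares of all tested genes were 9.65% higher and 16.5% lower in WT and 11.1% higher and 18.5% lower in KO. A call needs a mean normalized count over 10, so these shares are too low a background in both directions. Among the genes that pass this count, 37.7% were called in either direction in WT and 41.3% in KO. The part called lower was 23.8% in WT and 25.9% in KO, and the other calls were higher. The counts below are to be read against these genes. In the set on SREBP processing and on genes that respond to SREBPs, 3 of 14 rose in WT and 4 in KO, and none fell. *Me1*, the malic enzyme that supplies NADPH for fatty acid synthesis, was at 3.73 to 10.1 CPM in quiescent and 47.2 to 82.3 CPM in activated libraries, and it rose by 3.41 on the log2 scale in WT (SE 0.35, adjusted p = 6.29e-07) and by 3.34 in KO (SE 0.35, adjusted p = 6.05e-07). *Tmem97*, a sterol-regulated membrane protein, rose by 2.45 in WT (SE 0.35) and 1.81 in KO (SE 0.35), with adjusted p = 2.44e-05 and 0.000493. *Nus1*, part of the enzyme that makes dolichol, rose by 1.03 in WT (SE 0.27, adjusted p = 0.00673). Among 15 genes of sterol efflux, esterification and the LXR receptors, 7 fell in each genotype and none rose. *Npc1*, which exports cholesterol from lysosomes, fell from 30.6 to 76.4 CPM to 6.68 to 9.97 CPM (log2 difference -2.38, SE 0.41, adjusted p = 0.000160 in WT, and -2.78, SE 0.42, adjusted p = 3.69e-05 in KO). *Ch25h* and *Cyp27a1*, which make oxysterols, had log2 differences of -2.04 and -1.94 in WT (adjusted p = 0.0258 and 0.000589) and of -2.49 and -1.43 in KO (adjusted p = 0.00825 and 0.00408).

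Of 15 genes of fatty acid elongation and desaturation, 2 rose and 6 fell in WT, and 2 rose and 5 fell in KO. The ketoreductase *Hsd17b12* rose from 18.8 to 28.8 CPM to 79.9 to 112 CPM (log2 difference 2.01 in WT, SE 0.23, adjusted p = 2.11e-06, and 1.82 in KO, SE 0.23, adjusted p = 5.43e-06). The dehydratase *Hacd3* also rose (1.12 in WT and 1.18 in KO, adjusted p = 0.00314 and 0.00180). *Fads2*, the entry enzyme to polyunsaturated fatty acids, fell by 1.67 in WT (SE 0.30, adjusted p = 0.000274) and 2.73 in KO (SE 0.32, adjusted p = 2.86e-06). *Elovl4* and *Elovl5* fell in both genotypes (-1.49 and -1.36 in WT, -1.38 and -1.14 in KO). In fatty acid oxidation, 1 of 15 rose and 1 fell in WT (*Cpt2*, log2 difference 1.35, and *Ech1*, -1.20), and 4 rose and 1 fell in KO. Of 13 genes of lipid uptake and binding, 1 rose and 3 fell in WT, and 2 rose and 5 fell in KO. *Acsl3*, an acyl-CoA synthetase of the endoplasmic reticulum and lipid droplets, fell by 3.03 in WT (SE 0.37, adjusted p = 3.85e-06) and by 2.56 in KO (SE 0.35, adjusted p = 1.35e-05). *Acsl1*, its relative on mitochondria and the endoplasmic reticulum, rose by 1.23 in WT (SE 0.30, adjusted p = 0.00372) and by 1.81 in KO (SE 0.29, adjusted p = 7.72e-05). *Fabp4*, also an adipocyte and endothelial marker, and *Lrp1* fell in WT (-2.94 and -1.67) and in KO (-1.96 and -1.76).

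KO and WT cells were then compared within each state to ask whether loss of *Cxcr4* alters the pathway. In quiescent cells 0 of 30 members were called by edgeR, against 0.0155% of all tested genes, and 0 of 30 had an unadjusted p-value under 0.05, against 1.74% of all genes. DESeq2 called 0 as well. The log2 differences of KO against WT ran from -0.33 (*Stard4*) to 0.68 (*Fdps*), 15 above and 15 below 0, with a median of -0.002. The lowest unadjusted p was 0.211, for *Pmvk*. For 23 of 30 members the 95% interval of the log2 difference lay within 1 in both directions (t distribution, 8 residual degrees of freedom). *Scap* (-0.65 to 0.32), *Acly* (-0.49 to 0.42) and *Scd2* (-0.22 to 0.78) had the narrowest intervals of the 30, while that of *Idi1* ran from -1.06 to 1.00.

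In activated cells 0 of 30 members were called by edgeR or DESeq2, against 0.0504% of all genes by edgeR, and 0 of 30 had an unadjusted p-value under 0.05, against 8.37% of all genes. The log2 differences ran from -0.79 (*Dhcr7*) to 0.94 (*Idi1*). The lowest p was that of *Hsd17b7*, which stood at 20.9 and 14.5 CPM in WT and 40.6 and 27.2 CPM in KO libraries. They did not overlap, and the log2 difference of 0.91 (SE 0.45) had an adjusted p of 0.605 (edgeR). With 2 libraries per genotype the intervals were wide, and only 6 of 30 lay within 1 in both directions. For the other members a 2-fold difference in at least 1 direction lay within the interval, so such differences could not be told from none at this depth and number of libraries. The level of *Cxcr4* itself was close between replicate 2 of WT and of KO in this state (14.5 and 13.7 CPM). The KO effect also did not pass as different between the states for any member: 0 of 30 were called, against 0% of all genes, and 0 of 30 had an unadjusted p under 0.05, against 6.59%. The lowest p was 0.0774 for *Scap* (difference of the log2 differences 0.68, interval -0.16 to 1.53).

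**Figure D4:**
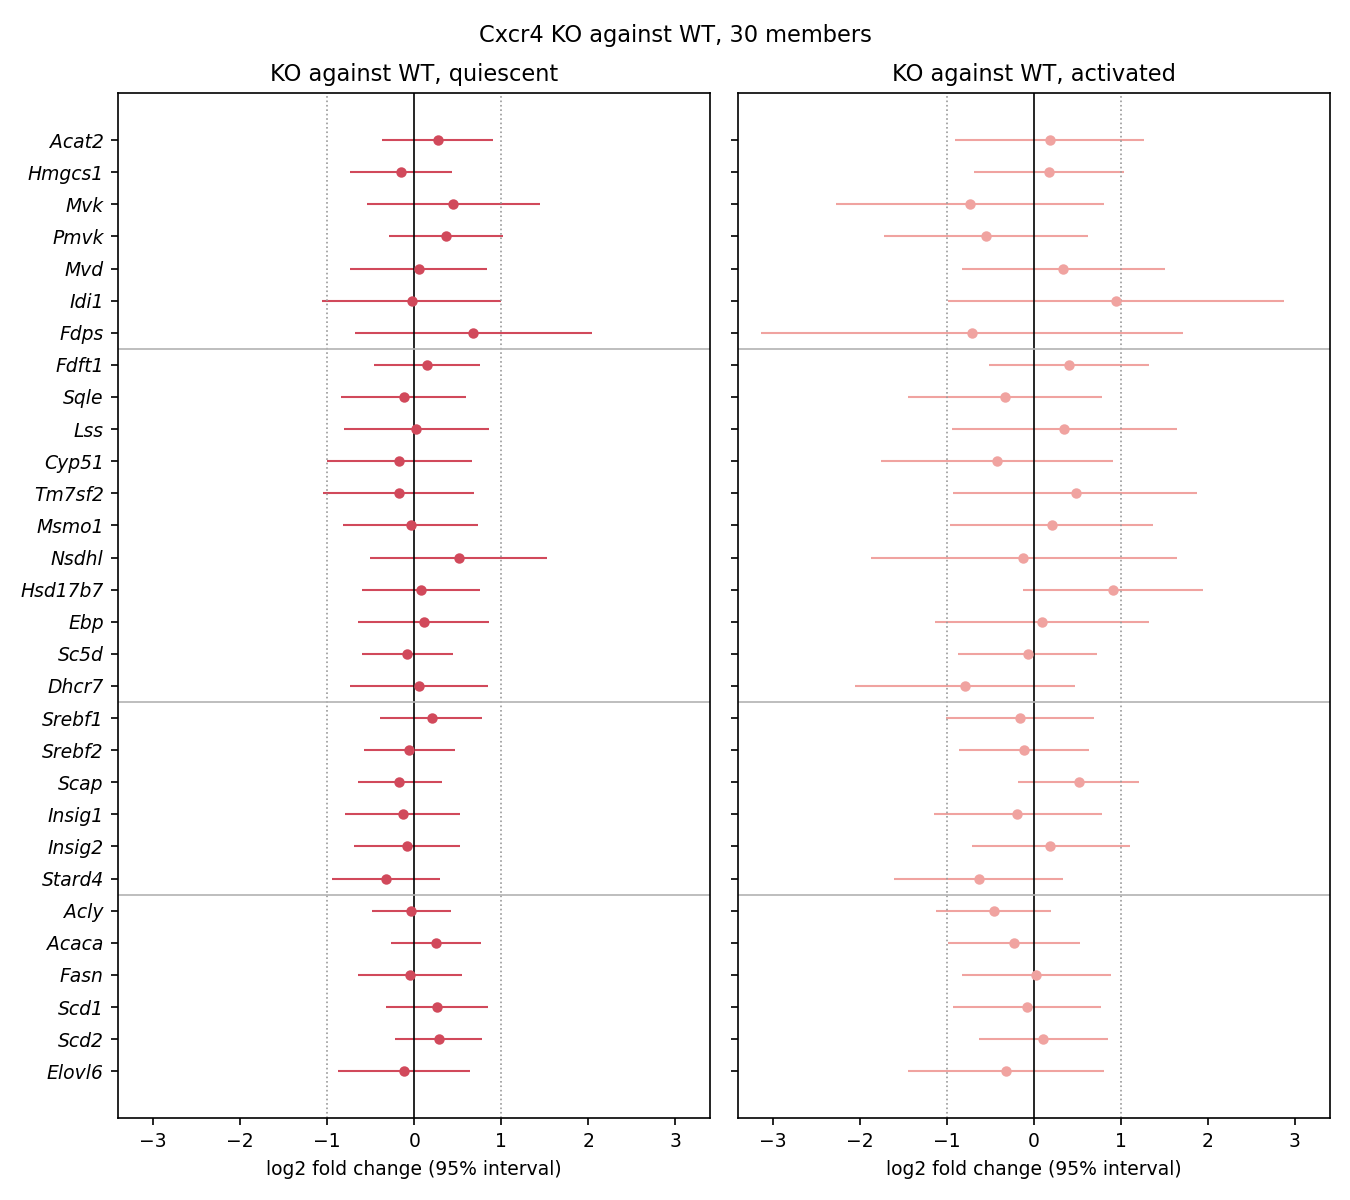
Log2 fold change of KO against WT (x axis) with 95% intervals for the 30 members in quiescent cells (left) and activated cells (right), in order of their roles. All intervals cover 0, and they are wider in activated cells, where 6 of 30 lie within the dotted lines at 1 in either direction.

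Among quiescent libraries of 1 genotype, many sterol genes varied together. In each genotype replicates 3 and 4 were deeper (22785815 to 23717013 counts) than replicates 1 and 2 (12775593 to 17532019 counts). In KO, 16 of 30 members were higher in both deeper libraries than in both shallower ones, and 0 lay the other way, against 17.1% and 19.8% of all tested genes. In WT, 16 were higher and 5 lower in the deeper libraries, against 22.2% and 26.2%. These counts describe 4 libraries per genotype. *Idi1* in KO stood at 5.84 and 6.15 CPM in the shallower and 29.2 and 25.03 CPM in the deeper libraries, and in WT at 13.5 and 13.3 CPM and 17.2 and 23.6 CPM. *Cyp51* in KO stood at 25.2 and 46.4 CPM against 127 and 113 CPM, and in WT at 66.6 and 63.9 CPM against 100.1 and 121 CPM. *Insig1* in KO stood at 69.4 and 65.5 CPM against 187 and 147 CPM. *Msmo1* in KO stood at 10.5 and 15.7 CPM against 40.8 and 36.0 CPM. The division by depth was drawn after the values were seen, so calls from it describe these libraries and do not test the pattern. The fit of deeper against shallower libraries called 1 of 30 members in KO, *Cyp51* (log2 difference 1.75, SE 0.29, adjusted p = 0.0407, edgeR), against 0.0349% of all genes. In WT it called 0 of 30, against 0.00388%. The test of whether that step differed between the genotypes called 0 of 30, against 0.0194%. For *Idi1*, *Cyp51*, *Insig1* and *Msmo1* both shallower KO libraries lay below both shallower WT libraries, and the deeper KO and WT libraries overlapped or KO was higher.

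Within the 4 shallower libraries the median log2 difference of KO against WT over the 30 members was -0.13, with 11 members above 0 and 19 below, and within the 4 deeper libraries it was 0.17, with 23 above and 7 below. Neither class had a member called, against 0.0116% and 0.00776% of all genes. In the shallower class 6 of 30 members, all lower in KO, had an unadjusted p under 0.05 (edgeR), against 4.73% of all genes. In the deeper class 1 of 30 did, *Scd2*, which was higher in KO, against 1.33% of all genes. The genes described next are the 6 members of the shallower class, chosen after their values were seen. Within the 4 shallower libraries the log2 difference of KO against WT was -1.16 for *Idi1* (SE 0.42), -0.87 for *Cyp51* (SE 0.29), -0.65 for *Insig1* (SE 0.25), -0.77 for *Msmo1* (SE 0.32), -0.66 for *Hmgcs1* (SE 0.27) and -0.93 for *Stard4* (SE 0.33). Within the 4 deeper libraries it was 0.41, 0.12, 0.14, 0.32, 0.18 and 0.13 for the same genes (SE 0.25 to 0.41). The adjusted p-value was 1 for each of them in both classes. *Fdps* (0.88, SE 0.87) and *Acat2* (0.57, SE 0.39) lay the other way in the shallower class. This division by depth was made after the values were seen. With it as a term in the fit, 0 of 30 members were called between KO and WT, against 0.0194% of all genes. Satellite cell markers summed to 6109, 6329, 8369 and 9795 CPM over WT replicates 1 to 4, higher in both deeper libraries. Over KO replicates 1 to 4 they summed to 7427, 6755, 6968 and 10370 CPM, where the deeper and shallower libraries overlapped. Endothelial markers summed to 1246, 1298, 521 and 600 CPM over WT replicates 1 to 4 and to 1354, 478, 1281 and 295 CPM over KO replicates 1 to 4, and fibroadipogenic progenitor markers to 717 and 809 CPM in the shallower and 2049 and 1654 CPM in the deeper KO libraries (1097 to 1474 CPM in WT). *Col3a1* alone stood at 44.2, 258, 1249 and 1001 CPM over KO replicates 1 to 4. The mean log2 CPM of the 8 progenitor markers was 4.77, 4.88, 5.75 and 4.60 in these libraries, lowest in the deeper replicate 4. The sum of the progenitor markers thus followed the depth of the KO libraries, and their mean log2 CPM did not. The part of these cells in the pattern was not tested.

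**Figure D5:**
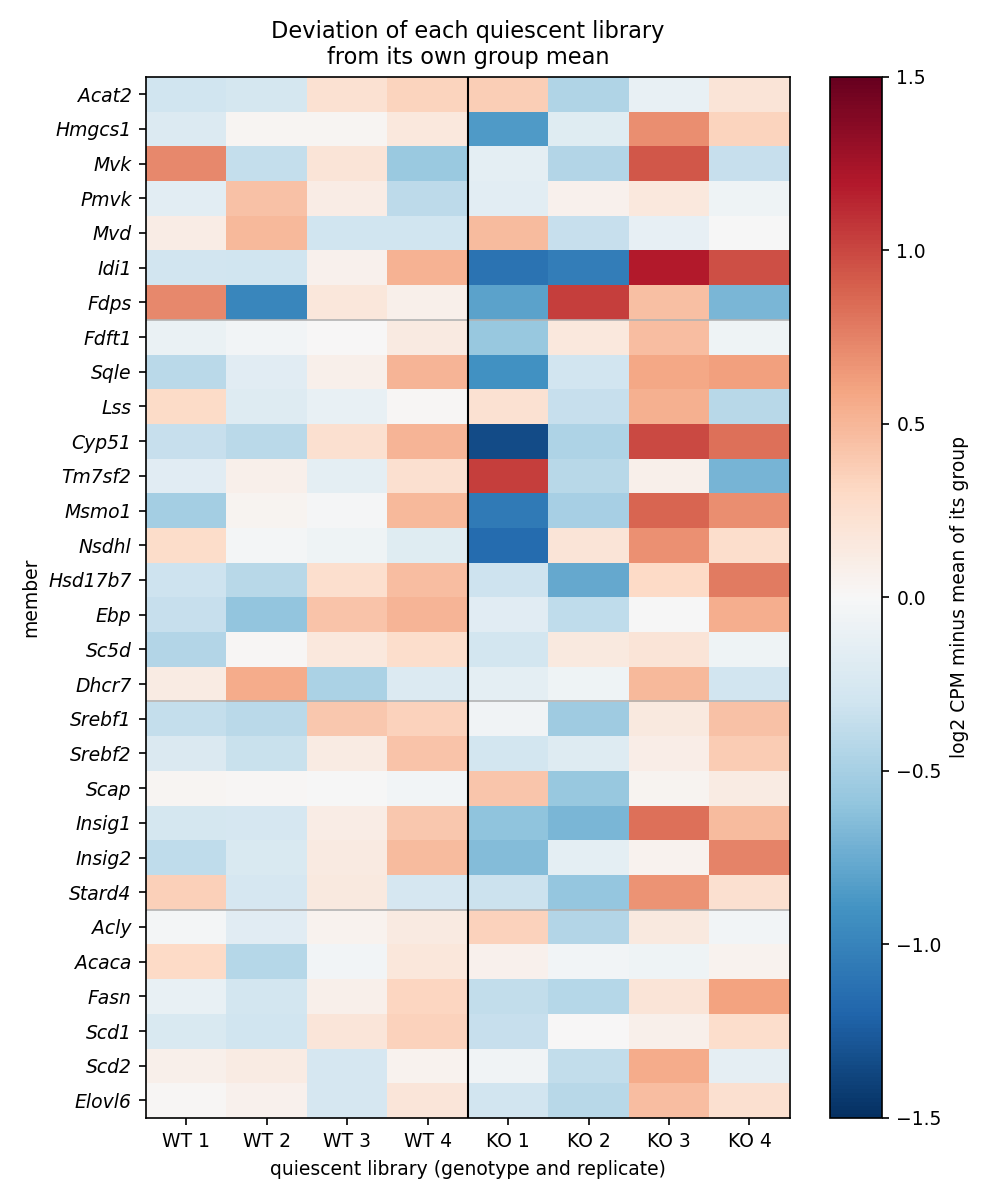
Deviation of log2 CPM from the mean of its own group (colour, log2 units) for 30 members in the 8 quiescent libraries, in order of their roles. *Hmgcs1*, *Idi1*, *Sqle*, *Cyp51*, *Msmo1*, *Insig1* and *Stard4* are below their mean (blue) in KO replicates 1 and 2 and above it (red) in KO replicates 3 and 4.

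*Cyp51*, *Insig2* and *Scd2* were called lower in both genotypes under each of 21 alternatives, which changed the scaling, the filter, the tool, the libraries in the fit, the replicate block or the depth of the quiescent libraries, or left out 1 of the 12 libraries. Over these alternatives the log2 difference ran from -2.66 to -1.90 in WT and -3.10 to -1.95 in KO for *Cyp51*, from -2.53 to -1.96 and -2.24 to -1.63 for *Insig2*, and from -1.98 to -1.46 and -2.04 to -1.72 for *Scd2*. *Pmvk* and *Scap* were called under all 21 in KO. In contrast, *Insig1* kept its call under 18 of 21 in WT and 17 of 21 in KO, and *Idi1* under 20 and 16 of 21. The counts of 12 called members in WT and 11 in KO rest on single activated libraries, since calls were lost without them, as given with each gene. Some members not called with all libraries were called in KO when 1 was left out. These were *Sc5d* and *Scd1* without KO activated replicate 2, and *Elovl6* and *Srebf2* without KO activated replicate 1.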

How the data were processed

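RNA-seq reads of 12 libraries were trimmed by the authors with Trim Galore 0.6.0, mapped to GRCm38 with STAR 2.7.2a and assigned to GENCODE genes with Rsubread. The counts deposited by the authors are whole reads per gene, not normalized. A deposited FPKM table, with 1 value per group, served here only to check the per-length levels. The labels gave each library's group. Counts were filtered with filterByExpr, scaled by TMM and fitted with 1 mean per group in edgeR 4.0.16 (R 4.3.3), with quasi-likelihood tests and Benjamini-Hochberg adjustment. DESeq2 1.42.0 was an alternative. Log2 CPM used a prior count of 2. Exon lengths, positions and overlaps came from GENCODE on GRCm38, and copies from blastn 2.17.0. CPM per kilobase was 0.951 to 1.04 times the deposited FPKM. The rule for the members takes no measured value, but the choice of this pathway, and of the lists, pairs and tests, was made with earlier results of these data known. All members could be named, with values per library for called genes, the pairs compared and *Acat2*, and from each other list at most the 3 highest and 3 lowest called genes in WT. The tests were tried on simulated data with known changes, but the outcome is not given here and nothing is drawn from it.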

Additional observations from a re-analysis of the deposited data

Results flagged for a closer look

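In each quiescent group of 4 libraries the highest and lowest value of each member were checked for a gap to the next library above Dixon's 95% critical value, 60 checks in all, of which chance flags about 1 in 20. One met it: the mevalonate kinase *Mvk* stood at 6.98 CPM in KO quiescent replicate 3 and at 3.23 CPM or less in the other KO quiescent libraries.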

How the results depend on the processing

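No member was called between KO and WT, or for the difference between the states, under any alternative run (DESeq2 size factors, upper-quartile scaling, removal of the ribosomal RNA gene, no filter, a mean count of at least 10, adjusted p alone, DESeq2, the compared groups alone, the replicate block, thinned quiescent libraries, each library left out, and depth class as a term, the last added after the values were seen). Leaving out each library in turn gave 5 to 12 called members in WT and 7 to 13 in KO for activated against quiescent cells. Whether the replicate numbers pair libraries is not settled. In quiescent libraries the correlation of deviations was 0.05, 0.122, -0.05 and 0.296 for the same number and -0.208 to 0.075 for different numbers. Total counts were also alike by number, with 17532019 in WT and 17238391 in KO for replicate 1, and 12775593 and 13075208 for replicate 2. The correlation was -0.024 in both activated pairs. With 2 libraries per group the deviations mirror each other, so this value cannot decide the question. With the replicate block 9 members were called in WT and 8 in KO, and 0 between KO and WT. The members' median log2 difference of KO against WT in activated cells was -0.08, -0.35 without KO activated replicate 1 and 0.07 without KO activated replicate 2, so its direction rests on 1 library. None of the called genes changed sign under these alternatives. Counts in the activated libraries were low for several members, called ones included: summed over both libraries of a genotype, *Idi1* had 19 reads in WT and 38 in KO, *Pmvk* 34 and 21, *Acat2* 38 and 47, *Nsdhl* 16 and 17, and *Fdps* 13 and 7.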
